A study of Mus musculus with 8 samples.

Results

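A list of 51 genes that regulate the lineages of the early mouse embryo was followed in mouse embryonic stem cells (mESCs) exposed to morphine. They were chosen by name as regulators of the epiblast, endoderm, primitive streak, heart mesoderm, neural tissue, neural crest and trophoblast, and all but Fgf5, a growth factor of the epiblast, are transcription factors. A gene was taken to be a row (locus) of the deposited RNA-Seq count table whose most frequent gene name is on the list. This gave 74 of the 44396 loci and 50 of the 31166 named genes. Neurod1 was not followed, since its name stands only within a locus whose most frequent name is Cerkl. Of the 50 genes, 35 have 1 locus and 15 have 2 or more, up to 7 for Sox17, and such loci share reads, so each gene is given by its locus of longest span. The cells were an Oct4-GFP mESC line grown without feeders in LIF and 2i (an inhibitor mix that holds cells in the naive state). Controls received saline (NaCl) and the treated cells 10 µM morphine, for 24 h in both conditions. Each condition has 2 RNA-Seq libraries and 2 ChIP-Seq libraries for H3K27me3 (trimethylated lysine 27 of histone H3), 8 libraries in all. The labels call them replicates, and the study's methods call the ChIP-Seq pairs biological replicates and the RNA-Seq pairs duplicates, but neither says whether they came from separate cultures, so the p-values measure only the spread between these libraries.

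H3K27me3 is deposited by Polycomb Repressive Complex 2 (PRC2) and is found over genes held silent. In mESCs, the promoters of many lineage transcription factors are known to be bivalent, that is, to carry this repressive mark together with trimethylated lysine 4 of histone H3, and their RNA is low until differentiation begins. PRC2 is known to gather at stretches of DNA rich in CpG, which are common at such promoters. The comparison asked whether 24 h of morphine was accompanied by a change in the RNA of these genes or in the peaks of the mark over them.

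The RNA-Seq libraries hold 27820199 and 29531096 counts in control replicates 1 and 2, and 25081266 and 28052049 counts in morphine replicates 1 and 2. The peak lists, called per library, hold 10305 and 13778 peaks in the controls and 8681 and 12282 after morphine, and while the study's methods state a minimum sequencing depth, the lists do not give the reads behind a library or a peak. The labelled cell type was checked with 12 pluripotency factors, which summed to 5203 to 5390 CPM (counts scaled to library size) in the 4 RNA-Seq libraries, with Pou5f1 (Oct4) at 645 CPM per kb of exon length or more in each. Of 8 fibroblast markers 4 passed the count filter, led by Acta2 at 9.63 to 11.4 CPM, while Dcn was at 0 in every library, and the list summed to 21.1 and 22.9 CPM in the controls and 22.4 and 20.4 CPM after morphine. Of 7 trophoblast markers 3 passed, and the list summed to 16.2 and 17.7 CPM in the controls and 19.7 and 20 CPM after morphine, with both morphine libraries above both controls. Its highest gene, Krt8, a keratin of simple epithelia, had 9.61 and 11.1 CPM in the controls and 12.7 and 13.1 CPM after morphine (log2 fold change 0.32, FDR = 0.105), while Tpbpa and Prl3d1 were at 0 in every library. The 8 primitive endoderm markers, all tested, summed to 1709 and 1756 CPM in the controls and 1823 and 1805 CPM after morphine, with both morphine libraries above both controls. Most of this sum was Sparc, a secreted matrix protein, at 1245 and 1273 against 1352 and 1341 CPM, while 5 of the 8 had a lower fitted value, the list median was -0.08 on the log2 scale, and Cubn, an endocytic receptor, was at -0.82 (FDR = 0.0823). Neural markers summed to 167 and 170 CPM in the controls and 176 and 170 CPM after morphine. No gene of these 4 marker lists passed an FDR of 0.05. Their part in the results below was not tested.

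RNA of the lineage genes was low in both conditions. Together the 50 genes summed to 169 and 157 CPM in control replicates 1 and 2 and to 170 and 166 CPM in morphine replicates 1 and 2, so the 2 conditions overlapped. Divided by exon length, the median control level of the 50 genes was 0.188 CPM per kb, against 6.13 CPM per kb over the 15032 named genes that passed the count filter. Of the 50 genes, 40 lay below 1 CPM per kb. In bulk RNA, a low level in every cell and a high level in few cells cannot be told apart.

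Above the median of the tested genes stood 3 genes, all of them factors of the epiblast and of the exit from pluripotency. Foxd3, a forkhead factor needed to maintain the epiblast, had a control level of 10.9 ± 0.446 CPM per kb (SD, n = 2). Zic2, a zinc finger factor of the epiblast and neural plate, had 7.46 ± 0.507 CPM per kb and Otx2, a homeodomain factor of the anterior epiblast, 7.41 ± 0.269 CPM per kb in the controls. Zic2 and Otx2 differed by less than their spread. Tfap2c, an AP-2 factor of trophoblast and germ cells, followed at 5.21 CPM per kb, and Sox1, an early neural factor, at 3.92 CPM per kb. The endoderm factors Gata6, Gata4 and Hnf4a lay at 1.55, 1.54 and 1.53 CPM per kb, and their control replicates overlap. Gata3, a GATA factor of trophoblast, had 1.25 and Tfap2a, an AP-2 factor of neural crest, 1.22 CPM per kb in the controls. These 10 genes were the highest of the 50 by this measure.

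In every library of both conditions, 12 genes had 3 or fewer counts at their locus of longest span. They are Foxa2, Lhx1, Mesp1, Hand2, Neurog2, Nkx2-2, Nkx6-1, Olig2, Pax2, Six3, Pax3 and Elf5, with 0 to 3 counts each per library, and no fold is given for them. A second locus of Nkx2-2, of shorter span, had 1 and 4 counts in the controls and 1 and 1 after morphine. Of the 12, 6 are neural factors. A fall in such a gene was not detectable at this depth, and no library of either condition exceeded 3 counts at these loci.

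**Figure D1:**
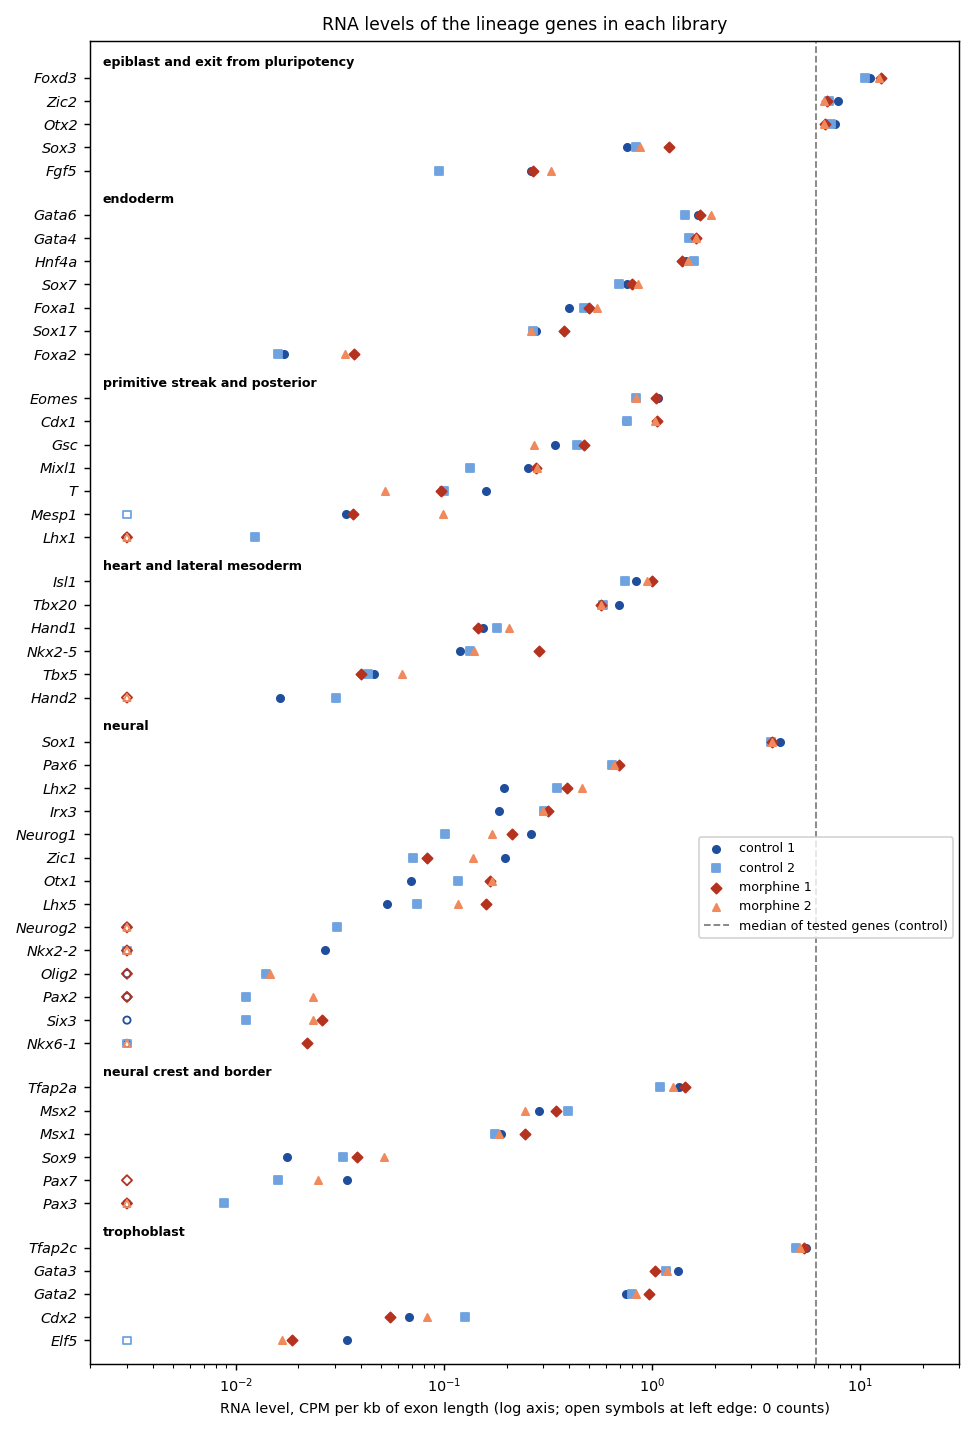
RNA level of the 50 lineage genes in CPM per kb of exon length (log axis), with 1 symbol per library (2 control, 2 morphine) and the genes ordered within 7 lists by their control level. Open symbols at the left edge mark 0 counts, and the dashed line is the median of the tested genes in the controls (6.13 CPM per kb), which Foxd3, Zic2 and Otx2 exceed.

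None of the lineage genes passed an FDR of 0.05 after morphine (edgeR quasi-likelihood test, Benjamini-Hochberg adjustment over 20350 loci). Of all tested loci, 309 did (1.52%), 125 higher and 184 lower. The balance depended on the setting. It was 281 higher and 234 lower with total-count scaling, and 58 and 30 with trends in locus length and GC content removed. The exact test, the likelihood ratio test and DESeq2 kept more lower than higher. Of the 50 genes 30 passed the count filter, and of the 74 loci 43 were tested. At an unadjusted p of 0.05, 2 of the 30 genes (Foxd3 and Otx1) and 3 of the 43 loci were counted, against 20.5% of all tested loci. The 30 genes had a median control level of 0.74 CPM per kb, against 6.13 over tested genes. The share among loci of like level was not computed, so the lower share is not read as a smaller effect. The exact test, the likelihood ratio test and DESeq2 also called 0 of the 43 loci, against 790, 840 and 606 of all 20350 loci. At an unadjusted p of 0.05 they counted 4, 4 and 0 of the 43, against 3576, 3705 and 2208 of all loci. DESeq2 gave no adjusted p-value to several of the genes, among them Otx1, Cdx1 and Otx2. For those its result rests on the unadjusted p. The standard errors of the log2 fold changes of the 30 genes ran from 0.0684 to 0.534 with a median of 0.191.

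The fitted value was higher after morphine for 20 of the 30 genes and lower for 10. The median log2 fold change of the 30 was 0.17, against 0.002 over the tested named genes, 50.6% of which had a higher value. All morphine libraries lay above all control libraries for 14 of the 30, where the share over tested genes was 28.8%, and below them for 3 of the 30, where it was 28.6%. Log2 fold changes followed the GC content of the locus over the 20325 loci that have one (Spearman's rho 0.485, across loci that share the same 4 libraries), and the median GC content was 53.7% for the 30 genes and 49.7% for tested loci. With trends in locus length and GC content removed, the median of the 30 genes was 0.07, and 17 were higher and 13 lower. Over tested loci the median was 0.20 (43 loci), 0.06 without morphine replicate 1 (44 loci) and 0.28 without morphine replicate 2 (45 loci). The count filter was applied anew in each fit, so the sets of loci differ. The part of GC content and of morphine replicate 1 in these values was not tested further.

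**Figure D2:**
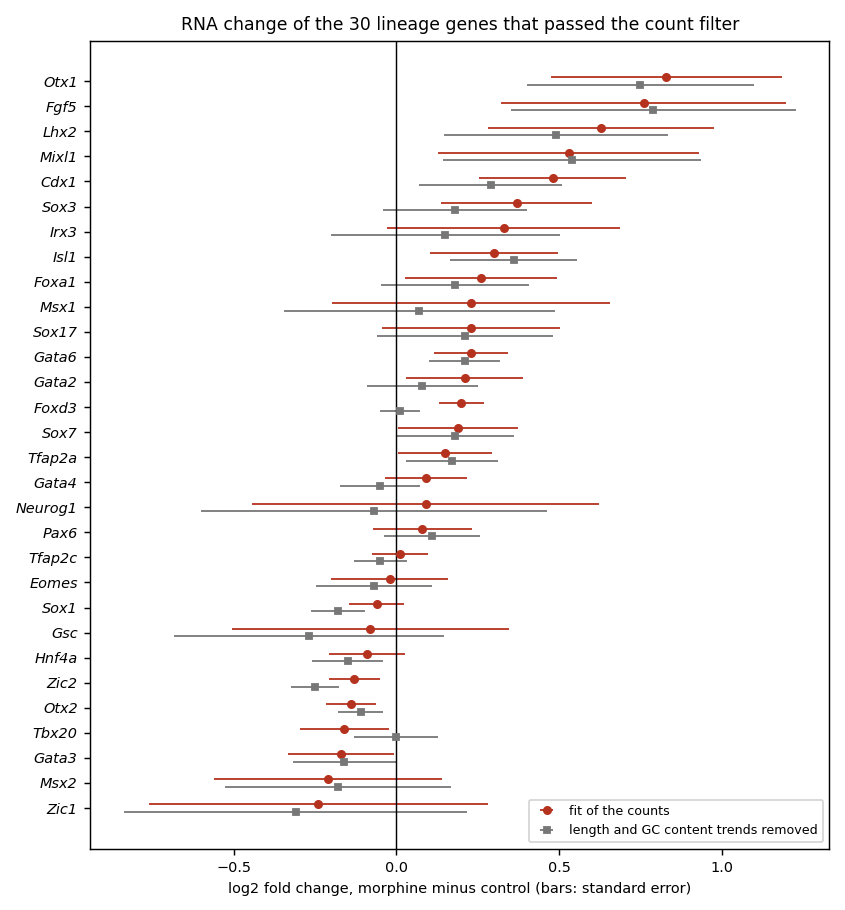
Log2 fold change, morphine minus control, with its standard error for the 30 lineage genes that passed the count filter, from the fit of the counts (circles) and with trends in locus length and GC content removed (squares). In the fit of the counts, values run from -0.24 for Zic1 to 0.83 for Otx1. With the trends removed they run from -0.31 for Zic1 to 0.79 for Fgf5. None passed an FDR of 0.05, and the value of Foxd3 moves from 0.20 to 0.01.

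Among the 5 genes of the epiblast and of the exit from pluripotency, which were all tested, 3 had a higher and 2 a lower fitted value. Foxd3 had 728 and 736 counts in the controls and 757 and 824 after morphine, or 11.2 and 10.5 against 12.6 and 12.3 CPM per kb. Both morphine libraries lay above both controls. The log2 fold change was 0.20 ± 0.068 (SE, unadjusted p = 0.0124, FDR = 0.132 by edgeR's quasi-likelihood test), the lowest p among the lineage genes. It was 0.01 with FDR = 0.954 when the trends in locus length and GC content were removed, and its FDR ran from 0.0989 to 0.963 over 16 alternatives of the fit. Otx2 had 559 and 569 counts in the controls and 460 and 505 after morphine, 7.60 and 7.22 against 6.79 and 6.70 CPM per kb. Both morphine libraries lay below both controls, with a log2 fold change of -0.14 ± 0.076 and FDR = 0.344. Zic2 had 637 and 620 counts in the controls and 523 and 559 after morphine, with a log2 fold change of -0.13 ± 0.078 and FDR = 0.392. Its morphine libraries also lay below its controls, and its log2 fold change was -0.25 (FDR = 0.203) with the trends removed.

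Of the 7 endoderm genes 6 were tested, 5 of them with a higher fitted value. The list ran from -0.09 to 0.26 on the log2 scale with a median of 0.21. In this list Sox17 counts with 0.225, at its locus of longest span, and its other loci ran from 0.003 to 0.275. Gata6, the GATA factor that sets primitive endoderm apart from epiblast, had 256 and 236 counts in the controls and 240 and 302 after morphine, or 1.67 and 1.43 against 1.70 and 1.92 CPM per kb. Its libraries did not overlap, although 1.67 and 1.70 lie close together, and the log2 fold change was 0.23 ± 0.113 with FDR = 0.288. Its exons overlap another annotated transcript, 1010001N08Rik. Gata4, its partner in endoderm, had 151 and 156 counts in the controls and 144 and 162 after morphine, with a log2 fold change of 0.09 ± 0.126 and FDR = 0.757. Hnf4a, a nuclear receptor of visceral endoderm and liver, had 196 and 229 counts in the controls and 172 and 204 after morphine. Its conditions overlapped, with a log2 fold change of -0.09 ± 0.116 and FDR = 0.728.

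The primitive streak and posterior genes include T (Brachyury), the T-box factor of nascent mesoderm, and 4 of the 7 were tested, 2 higher and 2 lower. Cdx1, a caudal-type homeodomain factor that patterns the posterior body axis, had 36 and 39 counts in the controls and 47 and 51 after morphine. Both morphine libraries lay above both controls, at 1.06 and 1.03 against 0.749 and 0.757 CPM per kb. The log2 fold change was 0.48 ± 0.225 with FDR = 0.258, and 0.29 with FDR = 0.644 with the trends in length and GC content removed. The counts of T were 9 and 6 in the controls and 5 and 3 after morphine, below the count filter. Of the 6 heart and lateral mesoderm genes 2 were tested, Isl1 and Tbx20. Their log2 fold changes were 0.30 ± 0.197 and -0.16 ± 0.137, with FDRs of 0.418 and 0.549. With the trends in length and GC content removed, Isl1 was at 0.36 and Tbx20 at -0.00. The other loci of Isl1 gave 0.30 and -0.44, the latter from 15 and 14 counts in the controls and 13 and 7 after morphine.

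Of the 14 neural genes 7 were tested, 5 higher and 2 lower, with a median log2 fold change of 0.09. Otx1, a homeodomain factor of forebrain and midbrain, had 10 and 18 counts in the controls and 22 and 25 after morphine, or 0.0698 and 0.117 against 0.167 and 0.170 CPM per kb. Both morphine libraries lay above both controls, and with a log2 fold change of 0.83 ± 0.355 it had the largest fitted change of the 30 genes in the fit of the counts (unadjusted p = 0.0368, FDR = 0.214, quasi-likelihood test). With the trends in length and GC content removed, Otx1 was at 0.75 and Fgf5 at 0.79. The value of Otx1 was 0.52 without control replicate 1 and 1.27 without control replicate 2. Its counts per library were far below those of Foxd3. Lhx2, a LIM-homeodomain factor of eye and forebrain, had 12 and 23 counts in the controls and 22 and 29 after morphine, 0.195 and 0.350 against 0.389 and 0.461 CPM per kb. The log2 fold change was 0.63 ± 0.347 with FDR = 0.333, and it was 0.28 without control replicate 1 and 1.12 without control replicate 2. Its second control library, at 0.350, lay nearer to the first morphine library, at 0.389, than to the first control. Sox1, the highest of the neural genes, had 456 and 444 counts in the controls and 387 and 427 after morphine, with a log2 fold change of -0.06 ± 0.085 and FDR = 0.766.

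Of the 6 genes of neural crest and the neural plate border 3 were tested, 2 higher and 1 lower, from -0.21 to 0.23 on the log2 scale. Tfap2a had 163 and 142 counts in the controls and 161 and 157 after morphine, and its conditions overlapped, with a log2 fold change of 0.15 ± 0.144 and FDR = 0.599. Its exons overlap the transcript Gm26688. Of the 5 trophoblast genes 3 were tested, 2 higher and 1 lower. Tfap2c had 464 and 445 counts in the controls and 417 and 446 after morphine, which gave a log2 fold change of 0.01 ± 0.086 and FDR = 0.948. Gata3 had 118 and 110 counts in the controls and 84 and 107 after morphine, with a log2 fold change of -0.17 ± 0.163 and FDR = 0.605.

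H3K27me3 peaks were found at the promoters of 2 of the 50 genes, Mesp1 and Mixl1, and in all 4 libraries for both. The promoter was the 1 kb on either side of the 5′ end of the locus. The share was therefore 4% of the lineage genes in every library, while a promoter peak was present at 12.3% and 13.0% of 31107 named genes in the controls and at 12.6% and 13.2% after morphine. Of the 50, 48 (96%) had no promoter peak in any library, against 82.4% of named genes. No lineage gene had a promoter peak in both libraries of 1 condition and in neither of the other, a pattern shown by 0.778% of named genes with peaks after morphine and by 0.45% with peaks in the controls, so that a count of 0 among 50 is near the background. The count of genes with a promoter peak was the same in the 4 libraries (two-sided exact permutation test, p = 1, and 2 libraries against 2 cannot go below 0.33). It was also 2 per library with a promoter of 3 kb or with the transcription starts of the GENCODE annotation. Most of these genes, although known as bivalent in mESCs, thus had no called peak at the promoter here. The Hox genes, whose region served the study as the positive control of the pull-down by qPCR, had none either (0 of 39 in any library), and no peak wider than 8642 bp is listed. Whether the lists hold every region with the mark was not tested, so a missing peak is not read as a missing mark.

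The peaks were next set against RNA level. Over all tested genes, promoter peaks were most frequent where RNA was lowest, at 27.5% to 28.8% of the 3754 genes with the lowest control levels in the 4 libraries and 5.97% to 8.36% of the 3754 with the highest. Of the 22 lineage genes among those with the lowest levels, 1 (Mixl1) had a promoter peak. Among genes that did not pass the count filter, 6.80% to 7.87% had a promoter peak, and 1 of the 20 lineage genes there (Mesp1).

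**Figure D3:**
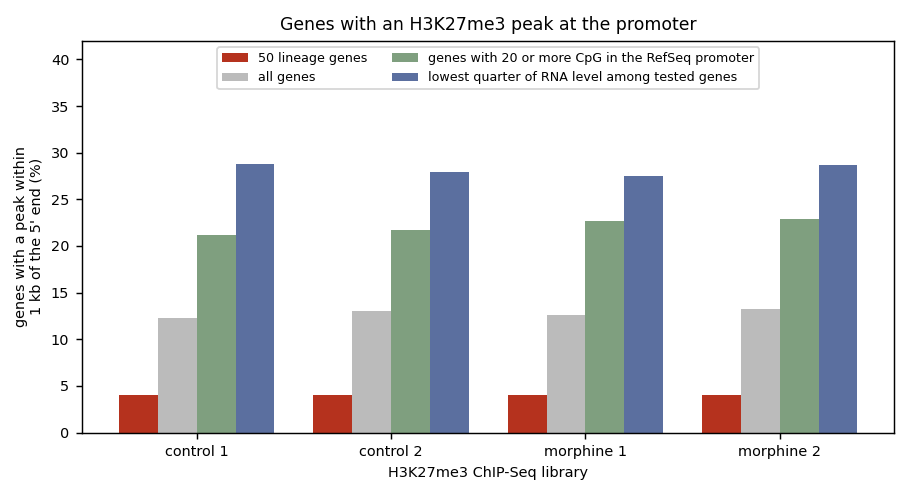
Percentage of genes with an H3K27me3 peak within 1 kb of the 5′ end in each of the 4 ChIP-Seq libraries, for the 50 lineage genes, all 31107 named genes, 6405 genes with 20 or more CpG in the RefSeq promoter, and the 3754 tested genes with the lowest control RNA level. The bars of the lineage genes stand at 4% in every library, below those of the other sets.

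Mesp1, a basic helix-loop-helix factor of the earliest heart progenitors, lies at chr7:79792241-79793590 on the minus strand (mm10). Its peak had widths of 6814 and 6837 bp without morphine and of 7119 and 6804 bp with it, and covered the whole locus and its promoter in each. The authors' score of the peak, 10 times the negative log10 of its p-value, was 76.0 and 71.2 in the controls and 61.6 and 81.9 after morphine, so the conditions overlapped. The RNA of Mesp1 had 1 and 0 counts in the controls and 1 and 3 after morphine. Mixl1, a paired-type homeodomain factor of the primitive streak, lies at chr1:180693043-180697034 on the minus strand. Its peak had widths of 7474 and 7910 bp without morphine and of 7173 and 7619 bp with it, and again the conditions overlapped. The scores were 73.5 and 53.7 in the controls and 71.0 and 64.2 after morphine, and 76.8% to 92.1% of the locus was covered. Mixl1 RNA had 16 and 9 counts in the controls and 16 and 18 after morphine, with a log2 fold change of 0.53 ± 0.401 and FDR = 0.497.

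The 8 peaks at the 2 genes were low in score and wide. Between 51.8% and 92.1% of the peaks of their library had a higher score, and none of the 8 reached a score of 100. The 2 peaks had median widths of 7144 and 7374 bp without morphine and of 7146 and 7212 bp with it, a difference of -80 bp with a pooled SD of 119 bp (exact permutation test, p = 1). The widest peak of any library was 8642 bp, and 19 to 36 peaks per library were wider than 8 kb. No 5′ end of another named gene lay within the peaks at Mesp1 and Mixl1.

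**Figure D4:**
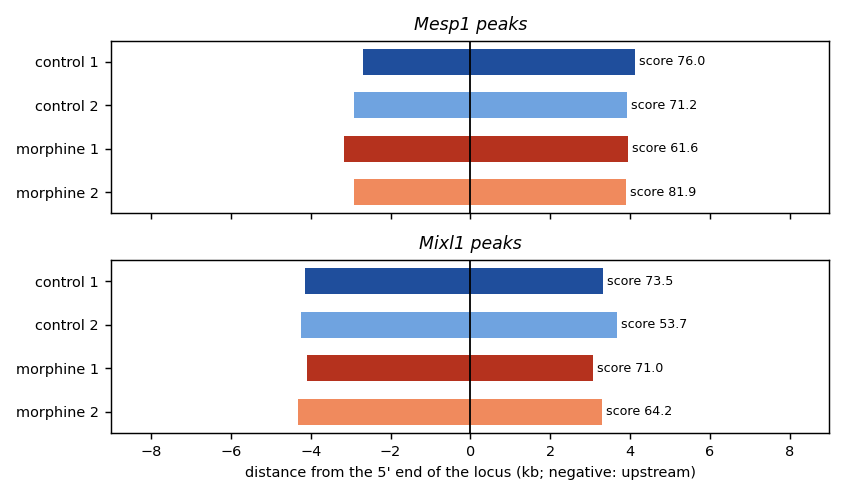
Position of the H3K27me3 peaks at Mesp1 (top) and Mixl1 (bottom) relative to the 5′ end of the locus in kb, negative upstream, with 1 bar per library and the authors' score beside it. In all 4 libraries the peaks span the 5′ end, from 2.69 to 3.17 kb upstream at Mesp1 and from 4.11 to 4.31 kb upstream at Mixl1.

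Beside Mesp1 and Mixl1, 4 genes had a peak over the locus but not at the promoter. Tbx5, a T-box factor of heart and forelimb, had a peak of 3973 to 4746 bp within the gene in all 4 libraries, with scores of 122 and 122 in the controls and 109 and 121 after morphine, which covered 7.93% and 9.39% of the locus in the controls and 9.31% and 7.86% after morphine. Mesp1, Mixl1 and Tbx5 were the 3 lineage genes with the largest covered share. Pax3, a paired-box factor of neural crest and muscle, had a peak in control replicate 1 and in both morphine libraries, over 3.22% to 3.66% of the locus. Pax2, a paired-box factor of kidney and midbrain, had one in control replicate 2 (5.95% of the locus) and morphine replicate 2 (5.39%). Gata3 had one in morphine replicate 1 only, over 9.09% of the locus and with a score of 53.3, close to the lowest score in the lists, 50. In the other 44 genes no base of the locus was covered in any library, so no order among the smallest shares can be given. The mean covered share over the 50 genes was 3.88% and 4.15% in the controls and 3.97% and 3.99% after morphine, a difference of -0.0355 percentage points with a pooled SD of 0.132 (exact permutation test, p = 1).

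Within 10 kb of the 5′ end, 2 of the 50 genes (4%) had a peak in each library, again Mesp1 and Mixl1, where 20.6% to 24.2% of named genes did. The nearest peak to any of the other 48 was at 11955 bp. The nearest peak lay at a median of 66301 and 60366 bp in the control libraries and 77616 and 45330 bp in the morphine libraries, so the conditions overlapped, and for named genes at 53751 and 42605 bp and 57750 and 43437 bp. T, for example, lay 15426 and 19509 bp from its nearest peak without morphine and 18879 and 19624 bp with it.

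**Figure D5:**
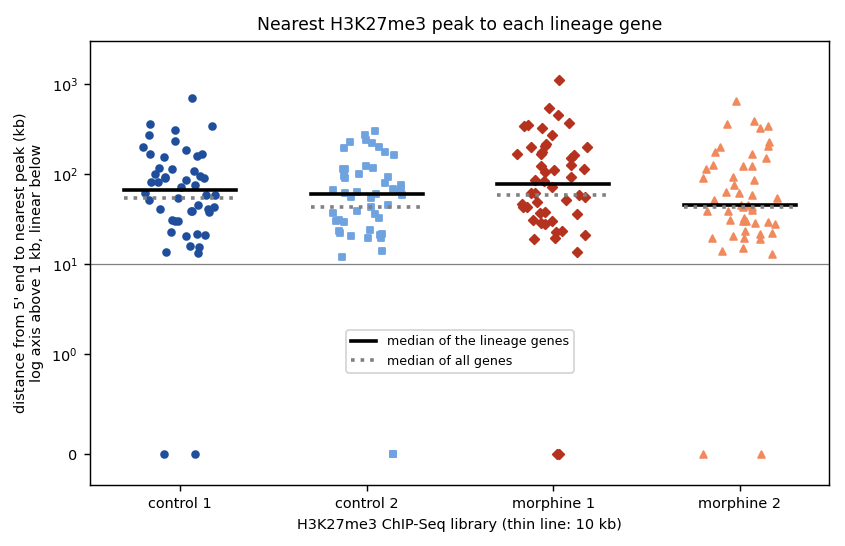
Distance in kb from the 5′ end of each of the 50 lineage genes to the nearest H3K27me3 peak in the 4 libraries (log axis above 1 kb, linear below), with the medians of the lineage genes (solid) and of all named genes (dotted). Mesp1 and Mixl1 lie at 0, and the other genes lie above the line at 10 kb in every library.

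Promoter sequences were available for 35 of the 50 genes in RefSeq (build GRCm38.p6, 250 bases before to 50 after the start). They were rich in CpG, with a median of 22 CpG per 300 bases and a range of 3 to 40, where the median of 17644 genes was 13. Of the 35, 18 (51.4%) held 20 or more, against 36.3% of all these promoters. A peak was present at 21.2% to 22.9% of the 6405 promoters with 20 or more CpG in the 4 libraries, and at 0 of the 18 lineage promoters among them. Mixl1, which had a peak, is not among the 35, so Mesp1 is the sole gene with a promoter peak in this set. The GC box GGGCGG, read on both strands, was found in 22 of the 35 (62.9%) and in 46.7% of all 17644. The promoters of 4 genes are shown, with CpG in capitals, because they set the called peaks against CpG content. Mesp1 (chr7:79793541-79793840, minus strand) had peaks in all 4 libraries and holds 4 CpG. Foxd3 (chr4:99656049-99656348, plus strand), the most abundant of the genes, had no peak and holds 25. T (chr17:8434173-8434472, plus strand) had no peak and holds 17. Elf5 (chr2:103411848-103412147, plus strand), an ETS factor of trophoblast, had no peak and holds 3, the fewest of the 35.
Mesp1: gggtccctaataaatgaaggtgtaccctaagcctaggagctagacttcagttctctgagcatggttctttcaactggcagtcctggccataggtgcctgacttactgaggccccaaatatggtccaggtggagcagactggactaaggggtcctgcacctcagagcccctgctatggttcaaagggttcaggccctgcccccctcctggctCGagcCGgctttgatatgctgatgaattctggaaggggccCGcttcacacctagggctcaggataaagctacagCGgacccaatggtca
Foxd3: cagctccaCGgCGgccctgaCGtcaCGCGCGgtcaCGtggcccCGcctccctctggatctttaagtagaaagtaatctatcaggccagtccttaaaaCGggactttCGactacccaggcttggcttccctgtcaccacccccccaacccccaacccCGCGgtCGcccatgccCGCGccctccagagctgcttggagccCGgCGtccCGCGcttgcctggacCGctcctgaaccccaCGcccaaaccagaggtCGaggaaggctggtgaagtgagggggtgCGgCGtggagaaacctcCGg
T: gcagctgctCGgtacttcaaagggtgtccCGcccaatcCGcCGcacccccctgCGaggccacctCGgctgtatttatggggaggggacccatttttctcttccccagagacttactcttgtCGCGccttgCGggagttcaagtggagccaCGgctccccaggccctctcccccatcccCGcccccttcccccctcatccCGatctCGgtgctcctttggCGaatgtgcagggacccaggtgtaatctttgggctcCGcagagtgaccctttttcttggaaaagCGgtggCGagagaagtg
Elf5: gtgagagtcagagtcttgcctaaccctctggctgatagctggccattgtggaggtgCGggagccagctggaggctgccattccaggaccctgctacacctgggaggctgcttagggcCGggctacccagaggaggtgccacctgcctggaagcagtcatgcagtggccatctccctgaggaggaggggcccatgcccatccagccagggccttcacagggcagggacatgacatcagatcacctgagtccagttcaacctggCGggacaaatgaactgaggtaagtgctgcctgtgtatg
These 4 are examples only. Over all genes, promoters with a peak in all 4 libraries held a median of 21 CpG (55.2% with 20 or more) and those with no peak a median of 11 (32.4%).

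Further lists of related genes give the setting. Of 20 other lineage factors 8 were tested, all 8 with a higher fitted value (50.6% over tested named genes), from 0.07 to 0.58 on the log2 scale, and 0 passed an FDR of 0.05. In this list Sox11 had a promoter peak in all 4 libraries and Myod1 in both controls and 1 morphine library, and the other 18 had none. Of the 12 pluripotency factors 1 passed, Klf2, with 68.4 and 65.9 CPM per kb in the controls and 86.8 and 82.2 after morphine (log2 fold change 0.33 ± 0.050, FDR = 0.0151). Its locus has a GC content of 62.3%, the highest of the 12, and it was not called with the trends in length and GC content removed (0.14, FDR = 0.148) or without morphine replicate 1 (0.29, FDR = 0.205). The promoters of Klf2, Klf4 and Pou5f1 had a peak in each of the morphine libraries and no peak in the controls, as did 0.778% of named genes. Of the 5 PRC2 core subunits 0 passed, all 5 had a lower fitted value, from -0.18 to -0.06, and Suz12 alone had that pattern of promoter peaks. The 5 PRC2 loci had a GC content of 41.6% to 47.8%, and of the 8 tested loci of the other lineage factors 6 lay above the 49.7% of tested loci. The part of GC content in these directions was not tested.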

How the data were processed

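H3K27me3 peaks and RNA were compared between 2 control and 2 morphine libraries of each assay. For RNA-Seq, reads were aligned by the authors with HISAT2 (version 2.1.0) to mm10, who assembled loci with StringTie (version 1.3.6) and deposited raw counts per locus from featureCounts (version 1.6.4). Whether counting used strand is not given in the sources used here, so loci that overlap another are uncertain. For ChIP-Seq, the authors aligned reads with Bowtie2 (version 2.3.5.1), ran the MACS peak caller on each library with a p-value cut-off of 1e-05, and deposited each peak with a score. The control library given to the caller is not stated, and the labels and the methods name different antibody suppliers.

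The counts were filtered with filterByExpr, TMM-normalized and tested in R 4.3.3 by the quasi-likelihood method of edgeR 4.0.16, without covariates, with Benjamini-Hochberg adjustment over 20350 loci. Unnamed loci, 2.03% of the counts, stayed in the fit. Levels are CPM on TMM library sizes. A gene with several loci was represented by the locus of longest span. GC content and GENCODE starts came from the GRCm38 reference, which has the coordinates of mm10, and promoter sequences from RefSeq (GRCm38.p6). Peak measures were taken per library and compared by two-sided exact permutation tests in Python 3.11.15 with numpy 2.4.6. The statistics were tested on simulated data, where the peak measures were exact and the RNA fit recovered the changed loci but made more false calls than an FDR of 0.05 allows, so calls near that threshold are less certain. Alternatives were the edgeR exact and likelihood ratio tests, DESeq2 1.42.0, RLE or total-count scaling, no count filter or at least 10 counts, a term for the replicate number, removing trends in locus length and GC content by natural splines with 5 degrees of freedom, a peak score of at least 100, equal numbers of the strongest peaks, a promoter of 3 kb, GENCODE starts, an overlap of at least 200 bp, and leaving out each library.

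The members and lists were chosen with earlier results of these data known. Given with values are genes past an FDR of 0.05 (none), the 5 with the lowest p, the 10 with the highest control level per kb, those with promoter peaks in both libraries of 1 condition only (none), and the 3 with the largest covered share. The 3 with the smallest could not be ranked, since 44 are at 0. The 12 with 3 or fewer counts are given by name, and the 48 with no promoter peak by count. All others are given by counts and ranges of their list, except T, Isl1, Tbx20, Sox17, Pax2, Pax3, Fgf5, Zic1 and Elf5. Like the genes outside the list, these were chosen after their values were seen.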

Additional observations from a re-analysis of the deposited data

How the results depend on the processing

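No lineage locus passed an FDR of 0.05 in edgeR's quasi-likelihood test or under any of 16 alternatives. The lowest FDR of a tested lineage gene over the alternatives was 0.0873, among the genes given one. DESeq2 gave none to several genes, among them Otx1, Cdx1 and Otx2, and counted 0 of the 43 loci at an unadjusted p of 0.05. The number of loci called in the whole table, 309, was 790 with the exact test, 840 with the likelihood ratio test, 606 with DESeq2, 515 with total-count scaling, 1657 without a count filter, 490 over loci with a GC content and 88 there with the trends in length and GC content removed. Leaving out 1 library gave 13 to 1619, the lowest without morphine replicate 1 and the highest without control replicate 2. Where this leaves 1 library in a condition, that library is assumed to vary like the other condition. The replicate number as a block gave 1128 loci, none of them of a lineage gene, and 382 with the trends also removed. With 2 pairs, same-numbered libraries deviated together with a correlation of 0.0264, and no source says that a number marks a shared batch, so the numbers were not taken to pair the libraries.

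The median log2 fold change of the 43 lineage loci was 0.20. It was 0.088 with the trends in length and GC content removed and 0.080 with the block as well. When 1 library was left out, it was 0.060 to 0.285 over 44 to 46 tested loci. Loci of the same gene share reads. With 1 locus per tested gene, the median of 0.171 became 0.072, 0.070 and 0.065 to 0.239 in turn. The cause was not tested. Signs were followed only for the genes named for a low p or a high control level. Tfap2c changed sign under both removals of the trends (-0.05 in both), without control replicate 2 (-0.06) and without morphine replicate 1 (-0.01). Gata4 changed sign under both removals of the trends (-0.05 in both), and Sox1 without control replicate 1 (0.01). Over the libraries left out, Tfap2c ran from -0.06 to 0.09 and Sox1 from -0.12 to 0.01. The other 10 of the genes followed kept the sign of their fitted value. When 1 library was left out, the value ran from 0.52 to 1.27 for Otx1, 0.28 to 1.12 for Lhx2, 0.13 to 0.33 for Gata6, -0.19 to -0.06 for Zic2, -0.15 to -0.01 for Hnf4a, -0.27 to -0.07 for Gata3 and 0.01 to 0.30 for Tfap2a, with no call in any.

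The number of lineage genes with a promoter peak was 0 in every library at a score of at least 100, and it was 2, 1, 2 and 1 when each library was held to its 8681 strongest peaks, and no alternative separated the conditions. The difference in covered share of the locus was 0.0206 percentage points with the strongest peaks and -0.167 to 0.0962 when 1 library was left out. The difference in width was 136 bp with the strongest peaks, where Mesp1 was the only gene with a peak in all 4 libraries. That value is therefore of Mesp1 alone, without Mixl1. With both genes, the difference was -195 to 34.8 bp when 1 library was left out. No width could be given at a score of at least 100, and the covered share of the locus does not depend on the 5′ end, so GENCODE starts were not run for it. The 2 libraries per condition, and peak lists without read numbers, limit these comparisons.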
